A study of Dorcoceras hygrometricum with 3 samples.

Results

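Regions of leaf DNA whose methylation departed from the hydrated state after moderate drying and again after desiccation give a level at both stages of water loss in Boea hygrometrica, and these regions are described here. They are the distinct regions of the deposited comparison of hydrated leaves with leaves at 70% relative water content (RWC) that overlap a region of the comparison of hydrated leaves with leaves at 10% RWC by at least 50% of the length of both. There were 577 of them, out of 2690 distinct regions in the 70% RWC table and 3093 in the 10% RWC table, and each had exactly 1 partner. They lay on 401 scaffolds and were listed for 691 genes, and 114 of them had identical boundaries in both tables.

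Boea hygrometrica (Dorcoceras hygrometricum) is a resurrection plant: its leaves can lose almost all water and recover on rehydration. DNA came from leaves of potted plants in 3 conditions: hydrated, dehydrated to 70% RWC and desiccated to 10% RWC. No genotype, treatment agent, plant age or number of plants is given for any of them in the labels. Each condition was 1 bisulfite library, so no difference here has a replicate check, no difference is tested, and drying cannot be told apart from what else differed among the plants and libraries. The level of a region is the authors' mean fraction of methylated cytosine calls, from 0 to 1 with 2 decimals. The tables hold no coverage, which leaves the depth of every level unknown. Sequence context and strand are not in them either, and the exact 95% binomial interval printed with a share of regions covers counting error alone.

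In plants, cytosine methylation is laid down and copied by several enzymes that each work in their own sequence context, and small RNAs made by Dicer and carried by argonaute proteins can guide it to new places. Methylation of promoters and transposons is mostly associated with silence, while many moderately expressed genes carry methylation in their bodies. Losses can be passive, when copying fails, or active, when glycosylases cut the methylated base out.

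The leaf at 70% RWC and the leaf at 10% RWC had much the same level at most of these regions. The median level was 0.30 at 70% RWC and 0.26 at 10% RWC, and the median difference, 10% minus 70% RWC, was -0.02 (quartiles -0.07 and 0.03). The level at 10% RWC was the lower of the pair in 335 regions, the higher in 214 and equal in 28. A difference of 0.1 or more was taken as a call. By that rule 115 regions (19.9%, 16.7 to 23.4) were lower at 10% RWC, 43 (7.45%, 5.45 to 9.91) were higher, and 419 lay within. Across the 577 regions the levels at both stages had a Pearson correlation of 0.86 and a Spearman correlation of 0.82, which is a description, since the rule held both levels on the far side of the same hydrated library.

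**Figure D1:**
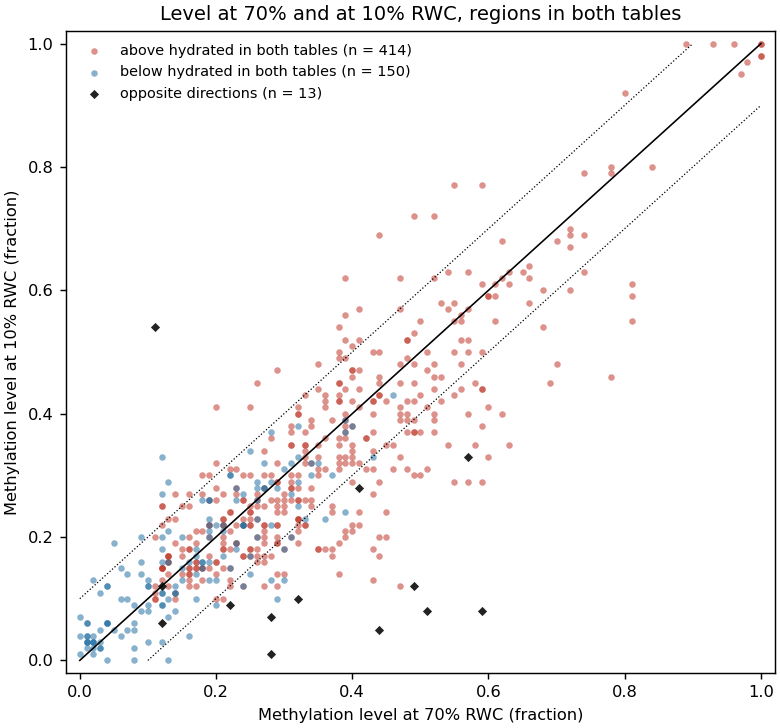
Each point is 1 of the 577 regions, with its methylation level at 70% RWC on the x axis and at 10% RWC on the y axis, both as fractions. The solid line marks equal levels and the dotted lines a difference of 0.1; 115 regions lie on or below the lower dotted line and 43 on or above the upper one, and the black diamonds are the 13 regions with opposite directions.

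Entry to both tables already fixed the distance from the hydrated leaf. Among these regions the higher of the paired levels was at least 1.92 times the lower in the 70% RWC table and 1.94 times in the 10% RWC table. A region at its hydrated level at 10% RWC is therefore not among them. In 564 of the 577 regions (97.7%) the direction from the hydrated leaf was the same in both tables, with 414 above and 150 below it. Of all regions, 70.4% of the 70% RWC table and 55.9% of the 10% RWC table were listed as increased. The tables share the hydrated library, so nothing is read from the match of direction.

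Regions above the hydrated level had a slightly lower median level in the desiccated than in the moderately dry leaf. Their distance from the hydrated level is a description, since regions at that level at either stage could not enter. Over the 414 regions the median level was 0.36 at 70% RWC (quartiles 0.25 and 0.48) and 0.31 at 10% RWC (0.21 and 0.45), against hydrated medians of 0.125 and 0.11 in the 70% and 10% RWC tables. Region by region the median difference, 10% minus 70% RWC, was -0.02, and the distance from the hydrated level at 10% RWC was a median 91.1% of that at 70% RWC (quartiles 75.3% and 109%). The desiccated leaf was closer to the hydrated level in 258 of them (62.3%, 57.5 to 67.0), further away in 133 and equally far in 23. By the 0.1 rule, 91 (22%) were lower at 10% RWC and 36 (8.7%) were higher. A level of 0.5 or more was reached by 94 of these regions at 70% RWC, by 77 at 10% RWC and by 60 at both.

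Regions below the hydrated level were about as low at 10% as at 70% RWC. Over the 150 regions the median hydrated level was 0.40 in both tables, and the median level was 0.155 at 70% RWC and 0.15 at 10% RWC. The median difference between the stages was 0 (quartiles -0.03 and 0.03), with 71 regions higher and 70 lower at 10% RWC. The desiccated leaf was closer to the hydrated level in 71 (47.3%, 39.1 to 55.6) and further away in 60. Only 6 (4%) were higher by 0.1 or more and 14 (9.33%) lower. The level was below 0.1 in 46 of these regions at 70% RWC and in 45 at 10% RWC. Whether regions above and below the hydrated level differ from each other in this was not tested.

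The 114 regions with identical boundaries give 1 hydrated, 1 moderately dry and 1 desiccated level for the same stretch of DNA, and in them the stages were closer still. Of these, 9 (7.89%) were lower at 10% RWC by 0.1 or more and 4 (3.51%) were higher, and the median difference was -0.01 (quartiles -0.04 and 0.02). The Pearson correlation of the levels was 0.95. Among the 88 that lay above the hydrated level, the medians were 0.10 hydrated, 0.365 at 70% RWC and 0.335 at 10% RWC, and the desiccated leaf was closer to the hydrated level in 56 (63.6%, 52.7 to 73.6), further in 28 and level in 4. Among the 26 below it, the medians were 0.375, 0.15 and 0.145, with 11 closer, 11 further and 4 level. The hydrated levels were equal in both tables in 113 of the 114. The exception was a region in the body of Bhs188977_001V1.1, a gene with no description, with 0.23 in one table and 0.26 in the other.

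**Figure D2:**
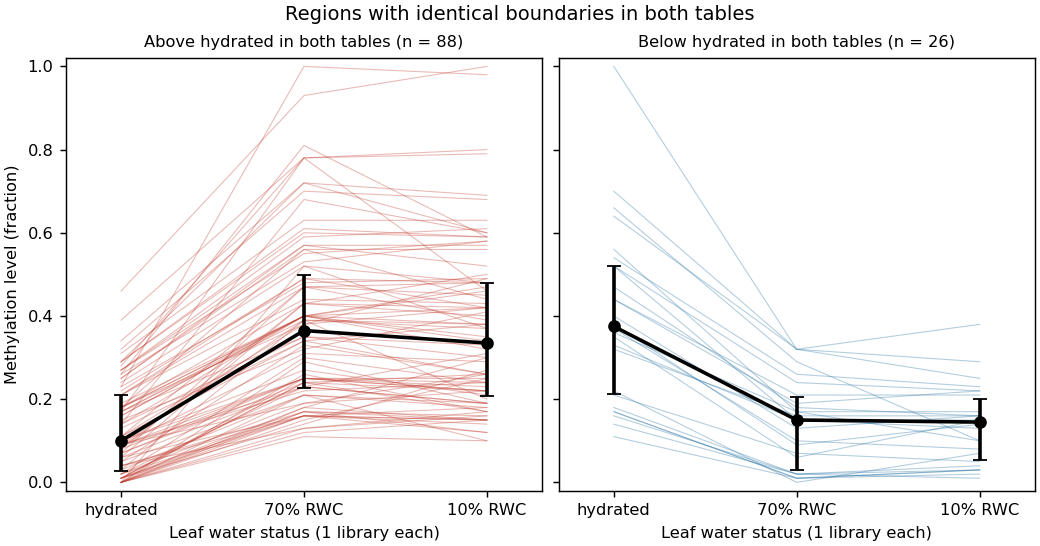
Lines join the methylation level (fraction, y axis) of each region with identical boundaries across the hydrated, 70% RWC and 10% RWC leaf (x axis, 1 library each); black points and bars are medians and quartiles over regions. The 88 regions above the hydrated level have medians of 0.10, 0.365 and 0.335, and the 26 below it have 0.375, 0.15 and 0.145 in the same order; the distance from the hydrated leaf was fixed by the choice of regions.

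Most of the larger differences between the stages came with shifted boundaries and a shifted hydrated level. The hydrated library is the same in both tables, so any gap between its paired levels is a difference between tables at 1 library, and its cause was not tested. That gap had a median of 0.03 (upper quartile 0.07) over the 463 regions whose boundaries differed, and it was 0.1 or more in 68 regions. Of the 158 regions that differed by 0.1 or more between 70% and 10% RWC, 91 had a hydrated gap above 0.05, and in 125 the hydrated gap had the same sign as the difference. Where the hydrated level of the 10% RWC table was lower by more than 0.05 (87 regions), 60 were lower at 10% RWC by 0.1 or more and 1 was higher. Where it was higher by more than 0.05 (56 regions), 7 were lower and 23 higher. With a hydrated gap of 0.02 or less (321 regions), 26 (8.1%) were lower and 9 (2.8%) higher. The Spearman correlation of the difference with the hydrated gap over all 577 regions was 0.66, a description of regions that share all their libraries. Both hydrated levels are therefore given with every region named below.

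**Figure D3:**
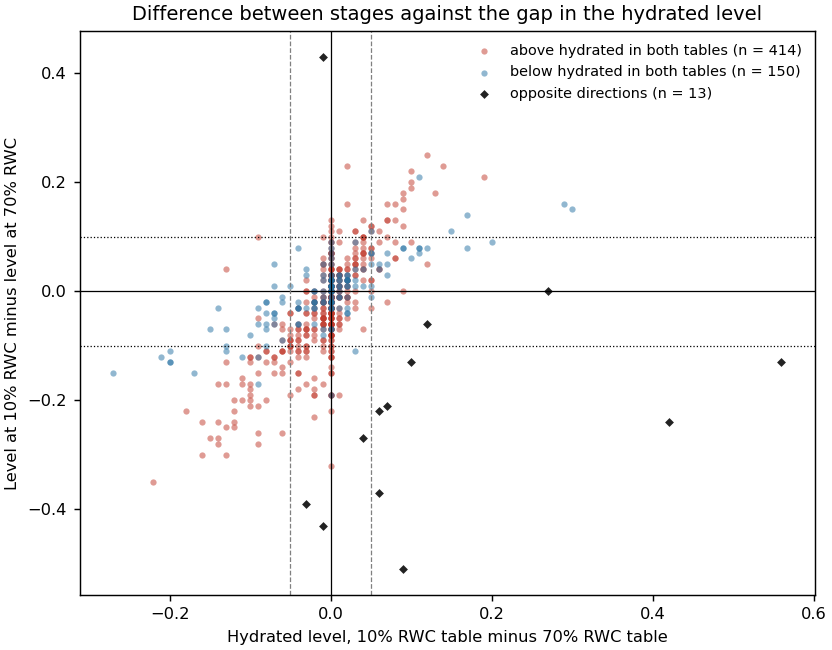
The x axis is the hydrated level in the 10% RWC table minus that in the 70% RWC table, and the y axis is the level at 10% RWC minus that at 70% RWC, for each of the 577 regions. Dashed lines mark a hydrated gap of 0.05 and dotted lines a difference of 0.1; the cloud rises from lower left to upper right, and 91 of the 158 regions on or beyond the dotted lines lie outside the dashed ones.

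A few regions had nearly the same boundaries and yet a different hydrated level. Of 84 regions that overlapped by at least 95% of both lengths without being identical, 11 had a hydrated gap above 0.05 and 2 a gap of 0.2 or more. Upstream of Bhs6326_002V1.1, with no description, the 70% RWC table (scaffold6326, 39856 to 40211) gave 0.11 hydrated and 0.41 at 70% RWC. The 10% RWC table (39857 to 40218) gave 0.67 hydrated and 0.28 at 10% RWC. The other lay downstream of Bhs2152_012V1.1, described as a polyneuridine-aldehyde esterase, an enzyme of alkaloid synthesis, with 0.26 hydrated in one table (scaffold2152, 192853 to 193087) and 0.68 in the other (192857 to 193088). The tables do not say which cytosines entered either mean, and why 1 library has these paired values was not tested. Positions are given on the scaffolds that the deposited tables name, with no genome build stated there or in the labels.

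Of the regions that differed by 0.1 or more with hydrated levels within 0.05 of each other, 48 were lower and 19 higher in the desiccated leaf, and several lay at described genes. In the body of Bhs710_034V1.1 (scaffold710, 194804 to 195081, identical in both tables) the level was 0.17 hydrated, 0.78 at 70% RWC and 0.46 at 10% RWC. This gene is described as an aarF domain-containing kinase, a family of atypical kinases that in plants act in plastids and mitochondria. Its difference, 10% minus 70% RWC, was the lowest among the identical regions, -0.32, and its level at 10% RWC lay above the hydrated level.

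Downstream of Bhs11144_001V1.1, a phosphate transporter-like gene of the major facilitator superfamily (scaffold11144, 8834 to 9160, identical), the level was 0.26, 0.81 and 0.59. Within the gene Bhs8788_003V1.1, a phosphopantetheinyl transferase, which attaches a cofactor to carrier proteins, and downstream of its neighbour Bhs8788_004V1.1, the photosystem II subunit PsbY, 1 identical region had 0.03, 0.39 and 0.20. Downstream of Bhs3302_004V1.1, an alanine transaminase, which interconverts alanine and pyruvate, it was listed at 0, then 0.52 and 0.37. All of these lay between the hydrated and the 70% RWC level at 10% RWC. A region upstream of Bhs62_016V1.1, without a description (scaffold62, 287316 to 287714, identical), went the other way from its hydrated level, with 0.66, 0.29 and 0.10, and was the only identical region below the hydrated leaf with a difference of 0.1 or more.

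Outside the identical set, upstream of Bhs40_009V1.1, a calcium-dependent protein kinase, which turns calcium signals into phosphorylation, the level was 0.19 and 0.58 in the 70% RWC table and 0.17 and 0.35 in the 10% RWC table. A region in the body of the alpha-glucosidase gene Bhs211_007V1.1 and downstream of Bhs211_008V1.1 was listed at 0 hydrated in both tables, with 0.49 at 70% RWC and 0.30 at 10% RWC. Upstream of Bhs211_032V1.1 and downstream of Bhs211_033V1.1, undescribed genes of the same scaffold, the levels were 0.15 and 0.54, then 0.10 and 0.35. In each of these regions the desiccated level lay between the hydrated level and that of the moderately dry leaf.

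Higher levels at 10% than at 70% RWC were fewer and smaller. Among the identical regions the 4 differences of 0.1 or more were 0.13, 0.12, 0.11 and 0.10, and all lay above the hydrated leaf. Downstream of Bhs4782_001V1.1, a half-size ATP-binding cassette transporter of subfamily G (scaffold4782, 571 to 797), the level was 0.01 hydrated, 0.14 at 70% RWC and 0.27 at 10% RWC. The others lay at genes without a description, upstream of Bhs119_049V1.1 (0.01, 0.18 and 0.30), in the body of Bhs149_013V1.1 (0.11, 0.38 and 0.49) and downstream of Bhs1479_004V1.1 (0, 0.15 and 0.25). The next lay below the hydrated leaf at both stages, with 0.35, 0.06 and 0.15. It was upstream of Bhs1379_010V1.1, a regulatory subunit of dolichyl-phosphate mannosyltransferase, which supplies mannose for protein glycosylation.

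With boundaries that differed but hydrated levels within 0.05, the highest values apart from the opposite regions were downstream of Bhs2778_001V1.1 (0.18 and 0.39, then 0.20 and 0.62) and upstream of Bhs2997_001V1.1 (0.16 and 0.41, then 0.18 and 0.57), both without a description. Downstream of Bhs5565_003V1.1, a Derlin, a membrane protein that helps export misfolded proteins from the endoplasmic reticulum, and upstream of its neighbour Bhs5565_002V1.1 the levels were 0.10 and 0.20, then 0.15 and 0.32. The body of Bhs3797_002V1.1, without a description, had 0.19 and 0.38, then 0.24 and 0.50, and in the body of Bhs5512_002V1.1, which has only an enzyme class, 0.17 and 0.35, then 0.21 and 0.48. At these last 3 the hydrated level was itself higher in the 10% RWC table, by 0.05, 0.05 and 0.04.

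Some strong departures from the hydrated leaf were the same at both stages. The level in the body of Bhs5319_002V1.1 was 1 at both, from hydrated levels of 0.20 and 0.29, and in the body of Bhs1151_004V1.1 it was 1 at both from a hydrated level of 0.50 in both tables. Upstream of Bhs7246_003V1.1 it was 0.39 at both, from 0.81 and 0.79. None of these has a description. Downstream of Bhs2150_015V1.1, a cyclin H, the partner of a kinase of transcription and the cell cycle (scaffold2150, 273572 to 273890, identical), it was 0.52 hydrated and 0.15 at both stages. Upstream of the actin gene Bhs4397_001V1.1 it was 0.39 at both, from 0 and 0.03.

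Opposite directions from the hydrated leaf were listed for 13 regions, 12 of them above it at 70% RWC and below it at 10% RWC. In 9 of the 13 the hydrated levels of the tables differed by more than 0.05. Among those 9, the regions at Bhs2152_012V1.1, Bhs6326_002V1.1, Bhs2985_010V1.1 and Bhs5_108V1.1 had both dry levels between the hydrated levels of the tables. Only the hydrated gap placed their stages on opposite sides. The 4 regions outside those 9 gave the hydrated leaf nearly the same level. In the body of Bhs120_050V1.1 (scaffold120, 376836 to 377418 and 376753 to 377341) the levels were 0.25 hydrated and 0.51 at 70% RWC in one table, and 0.24 hydrated and 0.08 at 10% RWC in the other. This gene encodes the transitional endoplasmic reticulum ATPase, which pulls ubiquitin-tagged proteins out of membranes and complexes.

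Downstream of the phospholipase D gene Bhs3997_016V1.1, whose enzyme makes the lipid signal phosphatidic acid, the levels were 0.08 and 0.28, then 0.12 and 0.01. The 10% RWC region there (scaffold3997, 192105 to 192660) lies within the longer 70% RWC region (191616 to 192688). Those in the body of Bhs958_006V1.1, without a description, were 0.21 and 0.44, then 0.18 and 0.05. The 1 region below the hydrated leaf at 70% RWC and above it at 10% RWC was in the body of Bhs294_025V1.1. This gene is described as centromeric protein E, a kinesin-like motor in humans. The levels were 0.27 and 0.11 in the 70% RWC table (scaffold294, 207260 to 207708) and 0.26 and 0.54 in the 10% RWC table (207434 to 207708). Of those with a wider hydrated gap, the largest differences were downstream of Bhs10789_002V1.1 (0.24 and 0.59, then 0.33 and 0.08) and upstream of Bhs8093_003V1.1 and downstream of Bhs8093_004V1.1 (0.23 and 0.49, then 0.29 and 0.12), all without a description.

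By gene part, the median difference between the stages was the same in bodies and flanks. Of the 577 regions 495 were assigned by the authors to 1 part only: 247 to gene bodies, 132 upstream and 116 downstream. The median difference, 10% minus 70% RWC, was -0.02 in each part. The share lower at 10% RWC by 0.1 or more was 17.4% in gene bodies (12.9 to 22.7), 19.7% upstream (13.3 to 27.5) and 22.4% downstream (15.2 to 31.1), beside 19.9% of all regions. The share higher was 7.29%, 7.58% and 7.76%, beside 7.45%. The intervals of the 3 parts overlap, and with 1 library per condition no order among the parts can be read.

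Within regions above the hydrated leaf the medians were -0.02 in bodies (n = 187), -0.02 upstream (n = 90) and -0.03 downstream (n = 71). The distance from the hydrated level at 10% RWC was a median 91.3%, 91.7% and 88.9% of that at 70% RWC. Within regions below it the medians were 0.01 in bodies (n = 54), -0.01 upstream (n = 41) and 0.01 downstream (n = 40), and the upstream losses started from a median hydrated level of 0.53 in the 70% RWC table, against 0.39 in bodies and 0.405 downstream. Among the identical regions 4 of 50 in bodies, 1 of 25 upstream and 2 of 28 downstream were lower by 0.1 or more. The 82 regions assigned to more than 1 part had a median of -0.02, with 20 lower and 6 higher. The authors gave the same parts in both tables for 537 of the 577 regions.

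**Figure D4:**
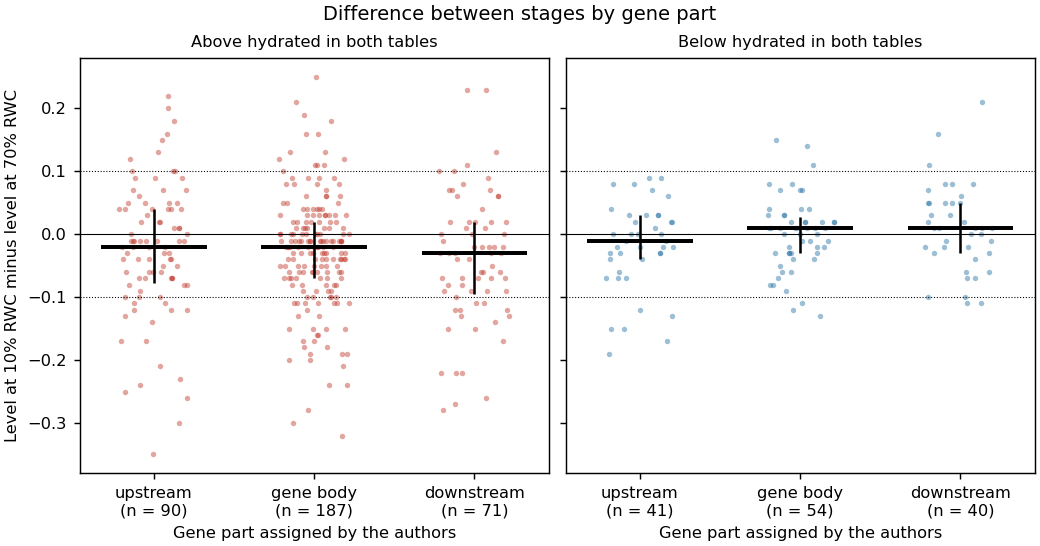
Points are regions assigned to 1 gene part, with the level at 10% RWC minus that at 70% RWC on the y axis; thick lines are medians, vertical lines quartiles and dotted lines a difference of 0.1. Medians are -0.02, -0.02 and -0.03 upstream, in gene bodies and downstream for regions above the hydrated leaf, and -0.01, 0.01 and 0.01 for those below it.

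By level, the median difference of regions above the hydrated leaf was furthest below 0 at intermediate methylation. Regions above the hydrated leaf were grouped by the mean of their 70% and 10% RWC levels. The median difference was -0.01 below 0.2 (n = 64), -0.04 from 0.2 to below 0.3 (n = 113), -0.03 from 0.3 to below 0.5 (n = 158) and -0.01 at 0.5 and above (n = 79). By the 0.1 rule 5, 26, 45 and 15 of them were lower at 10% RWC, and 4, 6, 15 and 11 higher. Regions below the hydrated leaf, grouped by the mean of their hydrated levels, had medians of 0.02 below 0.2 (n = 24), -0.01 from 0.2 to below 0.4 (n = 49), 0.005 from 0.4 to below 0.6 (n = 48) and -0.02 at 0.6 and above (n = 29). In the weakest of these the medians were 0.02 at 70% RWC and 0.04 at 10% RWC, near the floor of the scale. These groups were not tested against each other.

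Gene function was taken from the description of the best KEGG match. Of the 691 genes 368 had one, and 183 of the 577 regions fell in at least 1 of 21 keyword lists. Regions at described genes had a median difference of -0.01 (n = 334; 68 lower and 21 higher by 0.1 or more), and the others had -0.02 (n = 243; 47 lower and 22 higher). All lists are small, and their counts stand beside 19.9% lower and 7.45% higher over all regions and a median of -0.02. A list holds only genes whose description carried 1 of its keywords, and genes of like function can lie outside it. None of the lists is called different from the rest.

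Genes of light capture were few and went both ways. All 3 regions at photosynthesis genes lay above the hydrated leaf at both stages, and each differed by more than 0.1 between them. That at PsbY is given above. In the body of Bhs2182_010V1.1, an oxygen-evolving enhancer protein that shields the water-splitting centre of photosystem II, the levels were 0.13 and 0.30 at 70% RWC, then 0.02 and 0.14 at 10% RWC. Upstream of Bhs4075_001V1.1, the P700 apoprotein A1 of photosystem I, they were 0.19 and 0.39, then 0.26 and 0.52. Both of these had a hydrated gap above 0.05 in the direction of the difference. The Gene Ontology term chloroplast thylakoid held 11 regions, with a median of -0.05, 4 lower and 1 higher by 0.1 or more. It included the regions at PsbY and Bhs4075_001V1.1 but not that at Bhs2182_010V1.1. Its median hydrated level was 0.14 in the 70% RWC table and 0.11 in the 10% RWC table.

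Chaperones, which help proteins fold, differed little in most of the 8 regions of their list. Of the 8, 5 were higher and 3 lower at 10% than at 70% RWC, 7 lay above the hydrated leaf at both stages, the median difference was 0.025, and 2 were lower by 0.1 or more and none higher. The body of the heat shock protein 70 gene Bhs9477_002V1.1 had 0.21 and 0.45, then 0.11 and 0.24. Downstream of the chaperonin GroEL gene Bhs1240_003V1.1 they were 0.07 and 0.33, then 0.06 and 0.22. Upstream of Bhs862_003V1.1, an endoplasmic reticulum form of heat shock protein 70, they were 0.18 and 0.40, then 0.21 and 0.47. The remaining 5 differed by 0.05 or less. Outside the list, an identical region in the body of Bhs10299_001V1.1, a T-complex protein 1 subunit, had 0.22, 0 and 0.07. The ClpB match Bhs107_085V1.1, given with the protein turnover genes below, had 0.62 and 0.31, then 0.65 and 0.20. Both lay below the hydrated leaf.

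Antioxidant genes gave 11 regions, 10 of them above the hydrated leaf at both stages. At 10% RWC 9 were lower than at 70% RWC, beside 335 of all 577 regions, 2 of them by 0.1 or more. There was 1 higher by as much, and the median was -0.03, beside -0.02 over all regions. In the body of the thioredoxin reductase gene Bhs719_006V1.1, whose enzyme recharges thioredoxin, the levels were 0.19 and 0.38, then 0.03 and 0.14. A region in the body of the peroxidase gene Bhs358_034V1.1 and downstream of its neighbour Bhs358_035V1.1 had 0.11 and 0.36, then 0.09 and 0.18. The body of the thioredoxin gene Bhs106_020V1.1 had 0.03 and 0.12, then 0.10 and 0.25. The Cu/Zn superoxide dismutase gene Bhs7640_001V1.1, whose enzyme removes superoxide, had 0.27 and 0.59, then 0.25 and 0.50 in its body.

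Most regions of the hormone lists differed little between the stages. The wider Gene Ontology term response to hormone stimulus held 16 regions, with a median of -0.015. By 0.1 or more 4 of them were lower (25%) and 2 higher (12.5%), beside 19.9% and 7.45% of all regions. The abscisic acid list held 1 region, downstream of Bhs862_005V1.1, a protein phosphatase 2C, a family that includes abscisic acid co-receptors, with 0.08 and 0.29, then 0.07 and 0.24. The other hormone genes gave 12 regions, 6 above and 6 below the hydrated leaf, with a median of 0.02 and 1 beyond 0.1. That 1 lay upstream of Bhs1811_011V1.1, which matched the brassinosteroid receptor, with 0.33 and 0.13, then 0.13 and a listed 0. Its hydrated gap, -0.20, exceeded the difference. Upstream of Bhs4430_010V1.1, an auxin influx carrier, the levels were 0.31 and 0.13, then 0.42 and 0.21. In the bodies of the auxin response factor genes Bhs8910_001V1.1 and Bhs18_034V1.1 they were 0.25, 0.57 and 0.52 (identical boundaries), and 0.55 and 0.26, then 0.56 and 0.26.

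Signalling kinases gave 29 regions. Of these, 18 lay above and 11 below the hydrated leaf, 4 were lower at 10% RWC by 0.1 or more and none higher, and the median was -0.01. Apart from Bhs40_009V1.1 and Bhs1811_011V1.1 above, those 4 were downstream of the MAP kinase kinase gene Bhs225_036V1.1 (0.16 and 0.44, then 0.02 and 0.17) and in the body of Bhs1670_006V1.1, which matched FLS2, a receptor of bacterial flagellin (0.14 and 0.33, then 0.11 and 0.22). The region at Bhs225_036V1.1 was also listed upstream of Bhs225_035V1.1, the epsilon subunit of the translation factor eIF-2B. Both regions at genes that matched the immune receptor RPM1 lay upstream, with 0.03 and 0.11, then 0.06 and 0.20 at Bhs1716_004V1.1, and 0.28 and 0.12, then 0.33 and 0.11 at Bhs1034_009V1.1.

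The transporter list was the longest, with 32 regions, 25 above and 7 below the hydrated leaf. It had a median of -0.015, with 5 lower and 2 higher by 0.1 or more. Besides the region at Bhs11144_001V1.1, lower levels at 10% RWC were listed downstream of Bhs30_068V1.1, a peptide or histidine transporter (0.21 and 0.43, then 0.08 and 0.18), and upstream of Bhs2238_007V1.1, a mitochondrial carrier (0.31 and 0.69, then 0.19 and 0.45). The body of Bhs2524_002V1.1, a borate transporter, had 0.37 and 0.81, then 0.27 and 0.61. That of Bhs414_007V1.1, a sugar porter-type transporter, had 0.27 and 0.58, then 0.22 and 0.45. A higher level at 10% RWC was listed in the body of Bhs45_115V1.1, of the same family as Bhs11144_001V1.1 (0.12 and 0.26, then 0.22 and 0.45). In all of these but Bhs414_007V1.1 the hydrated gap was 0.10 or more in size, and in all it had the sign of the difference, whereas Bhs11144_001V1.1 and Bhs4782_001V1.1 had none. The list also counts a gene that is not a transporter, Bhs1306_015V1.1, a 3-oxoacyl-[acyl-carrier protein] reductase. Its body had 0.14 and 0.02, then 0.12 and 0.02.

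The cell wall and transcription factor lists, as their keywords drew them, had the highest medians among the lists with 5 regions or more. These were 0.05 over 7 regions and 0.04 over 9, with 1 region beyond 0.1 in each. The regions beyond 0.1 were in the body of the endoglucanase gene Bhs3708_003V1.1, a wall glucan hydrolase (0.12 and 0.02, then 0.27 and 0.13), and downstream of the E2F gene Bhs1119_011V1.1, a regulator of DNA replication genes (0.55 and 0.09, then 0.60 and 0.20). Downstream of Bhs119_054V1.1, a xyloglucan transferase that loosens and rejoins the wall, the level was listed at 0 hydrated in both tables, 0.31 at 70% RWC and 0.38 at 10% RWC. Upstream of another such gene, Bhs861_007V1.1, the levels were 0.01 and 0.14, then 0.01 and 0.19.

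Downstream of Bhs387_006V1.1, which matched MYC2, a factor of the jasmonate response, it was listed at 0, then 0.26 and 0.17 in an identical region, and upstream of another MYC2 match, Bhs862_008V1.1, it was 0.20 and 0.41, then 0.24 and 0.47. The homeobox-leucine zipper gene Bhs14672_001V1.1 had 0.13 and 0.32, then 0.18 and 0.40 in its body. The MADS-box gene Bhs6088_002V1.1 had 0 and 0.25, then 0.12 and 0.30 upstream. The list left out the auxin response factor genes, given with the hormones, with differences of -0.05 and 0. It also left out Bhs12559_003V1.1, which matched LATE ELONGATED HYPOCOTYL (0.26 and 0.12, then 0.24 and 0.09 in its body). Its median is therefore not that of all transcription factor genes.

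The list of RNA silencing and chromatin had close levels at both stages. In all 7 of its regions, some of them at RNA polymerase subunits, the difference was 0.08 or less in size. Of these, 3 lay above and 4 below the hydrated leaf. The list left out 5 regions at genes that matched the COMPASS component SWD3, also a chromatin description. Their differences ran from -0.11 to 0.15, with 2 higher and 1 lower by 0.1 or more. Upstream of the argonaute gene Bhs208_029V1.1, whose protein carries guide RNAs, the levels were 0.13 and 0.53, then 0.17 and 0.46. The body of the Dicer gene Bhs455_022V1.1 had 0.16 and a listed 0, then 0.19 and 0.04. The 3 genes that matched the histone demethylase JARID1, which removes methyl groups from histone lysines, went both ways from the hydrated leaf. Bhs119_058V1.1 had 0.42 and 0.84, then 0.37 and 0.80 upstream, Bhs211_057V1.1 had 0.57 and 0.24, then 0.54 and 0.27 upstream, and Bhs1200_013V1.1 had 0.50 and 0.22, then 0.59 and 0.30 downstream.

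**Figure D5:**
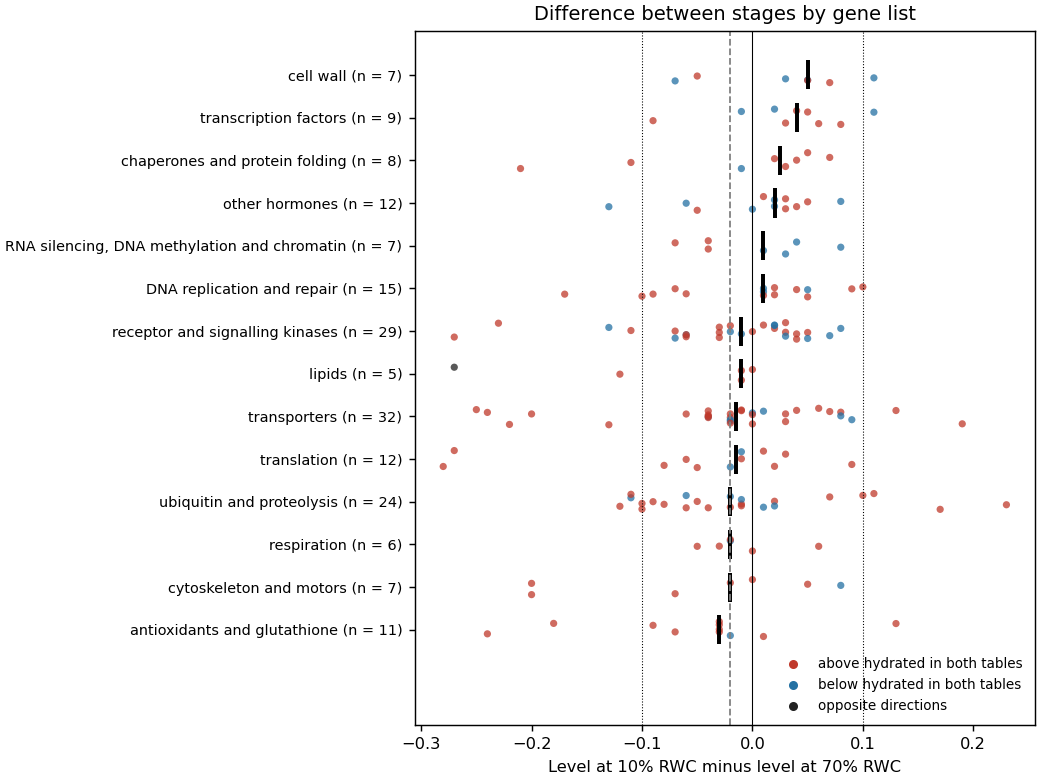
Points are regions of the gene lists with 5 regions or more, with the level at 10% RWC minus that at 70% RWC on the x axis and the lists on the y axis; thick bars are list medians, the dashed line the median of all 577 regions (-0.02) and dotted lines a difference of 0.1. List medians run from -0.03 for antioxidants and glutathione to 0.05 for cell wall, and the points of the lists overlap widely.

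Protein turnover genes went both ways. Of 24 regions at ubiquitin, proteasome and protease genes, 18 lay above the hydrated leaf, 5 were lower and 4 higher by 0.1 or more, and the median was -0.02. Downstream of Bhs1119_046V1.1, a RING-type ubiquitin ligase, the levels were 0.21 and 0.49, then 0.35 and 0.72. An identical region in the body of another gene of that description, Bhs1660_001V1.1, was listed at 0, then 0.21 and 0.10. The body of Bhs107_085V1.1, which matched ClpB, a chaperone that pulls apart protein aggregates, had 0.62 and 0.31, then 0.65 and 0.20. Downstream of Bhs1259_020V1.1, the proteasome component ECM29, they were 0.16 and 0.39, then 0.25 and 0.56.

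Translation genes gave 12 regions, 10 above the hydrated leaf, with a median of -0.015 and 2 lower by 0.1 or more. These were the region at Bhs225_035V1.1 above and the body of the tRNA-dihydrouridine synthase gene Bhs22882_001V1.1 (0.25 and 0.63, then 0.16 and 0.35). The 15 regions of the DNA replication and repair list had a median of 0.01, with 2 lower and 1 higher. Of the 15, 12 lay at genes that matched the endonuclease subunit SLX1, the most frequent description of all, with a median of 0.015. The largest of those differences was downstream of Bhs106_050V1.1 (0.09 and 0.41, then 0.08 and 0.24). An identical region in the body of the DNA topoisomerase III gene Bhs9286_001V1.1, whose enzyme relieves strand crossings, was listed at 0, then 0.29 and 0.19. Upstream of Bhs106_034V1.1, another gene of that description, the levels were 0.21 and 0.47, then 0.12 and 0.57. Outside the list, the body of Bhs1011_005V1.1, which matched a DNA helicase, had 0.17 and 0.53, then 0.13 and 0.42.

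The 3 regions of the RNA processing list were all higher at 10% RWC, by 0.18, 0.08 and 0.02. The largest was in the body of Bhs12415_001V1.1, a pre-mRNA-processing factor (0.10 and 0.29, then 0.23 and 0.47), where the hydrated gap was 0.13. The list did not hold the splicing factor gene Bhs15615_001V1.1, whose body region was lower at 10% RWC (0.10 and 0.22, then 0.20 and 0.09). Of the 5 exopolyphosphatase matches all lay above the hydrated leaf, 3 were lower and 1 higher by 0.1 or more, and the median was -0.11. Their median hydrated level was 0.11 in the 70% RWC table and 0.03 in the 10% RWC table. These matches were counted because the description was frequent, after the values had been seen.

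Metabolic and structural lists were small. The cytoskeleton list (7 regions, median -0.02) had 2 regions lower by 0.1 or more, upstream of the kinesin gene Bhs152_054V1.1 (0.14 and 0.50, then 0.06 and 0.30) and in the body of the beta-tubulin gene Bhs4377_012V1.1 (0.16 and 0.37, then 0.04 and 0.17). The lipid list (5 regions, median -0.01) had 2, at the phospholipase D gene above and downstream of Bhs2020_003V1.1, an acyl-CoA oxidase of fatty acid breakdown, and in the body of its neighbour Bhs2020_004V1.1 (0.15 and 0.37, then 0.05 and 0.25). The body of the omega-3 fatty acid desaturase gene Bhs1820_004V1.1 had 0.26 and 0.56, then 0.27 and 0.55.

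Respiration genes (6 regions, median -0.02) had none beyond 0.1. Their widest was the citrate synthase gene Bhs238_020V1.1 with 0.17, 0.40 and 0.46 in an identical region of its body, and upstream of the pyruvate kinase gene Bhs3049_003V1.1 the levels were 0.83 and 0.40, then 0.81 and 0.38. Of the specialised metabolism list (4 regions, median 0.01) the widest was upstream of Bhs10451_001V1.1, a C4-hydroxylase (0.89 and 0.28, then 0.92 and 0.37). The 3 trafficking regions, all above the hydrated leaf, had a median of -0.01 and none beyond 0.1. They lay at a clathrin heavy chain, a syntaxin and another SNARE gene, which coat and fuse vesicles. Besides the alpha-glucosidase region above, the sugar list held 1 upstream of the beta-glucosidase gene Bhs150_023V1.1, with 0.01 and 0.13, then 0 and 0.17.

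Of the Gene Ontology terms with 10 or more regions, the lowest median was that of nucleic acid binding (13 regions, -0.10, with 7 lower and none higher by 0.1 or more) and the highest that of intracellular part (13 regions, 0.06, none lower and 4 higher). They are the extremes of many overlapping terms and were picked by their values. Response to osmotic stress held 8 regions, 4 above and 4 below the hydrated leaf, with a median of -0.07 and 4 lower by 0.1 or more. Its median hydrated level was 0.24 in the 70% RWC table and 0.135 in the 10% RWC table. In all 4 regions lower by 0.1 or more, the hydrated level was also lower in the 10% RWC table, by more than 0.05. The largest of these was in the body of Bhs12084_002V1.1, an anthranilate phosphoribosyltransferase of tryptophan synthesis (0.29 and 0.59, then 0.13 and 0.29). Response to abscisic acid stimulus held 1 region, downstream of Bhs915_012V1.1 (0.11 and 0.34, then 0.11 and 0.26). Response to water deprivation also held 1, downstream of Bhs5_108V1.1 and Bhs5_109V1.1, with 0 and 0.12 in one table and 0.27 and 0.12 in the other.

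Beside the other regions of their tables, those in both were longer, with similar shares in gene bodies and at described genes. Their median length was 398 bp in the 70% RWC table (quartiles 294 and 548), against 321 bp (250 and 439) for the 2113 others, and 384 bp against 321 bp in the 10% RWC table. The rule asked for an overlap, and the part that length plays in it was not tested. Gene bodies held 49.9% of those with 1 part, against 49.8% of the others at 70% RWC and 50.6% against 49.6% at 10% RWC. A description was given for 53.3% of their genes against 50% at 70% RWC. The share listed as increased was 73.8% against 69.4% in the 70% RWC table and 71.9% against 52.2% in the 10% RWC table. The rule ties the tables to each other through the hydrated library, so nothing is read from this share.

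Several scaffolds held many of these regions. There were 7 or more on 7 scaffolds, with 12 on scaffold211, 11 on scaffold862 and 10 each on scaffold119 and scaffold107. Of the 12 on scaffold211, 8 lay above and 4 below the hydrated leaf, 9 were lower at 10% than at 70% RWC, and the median difference was -0.055. On scaffold862 the median was 0, with 5 higher, 4 lower and 2 equal. Of 168 pairs of neighbouring regions on a scaffold with the same direction in both tables, 96 pairs shared that direction, beside 414 regions above and 150 below the hydrated leaf in all, and nothing is read from that count about their arrangement. All 4 pairs within 1000 bp of each other did, for example those upstream of Bhs1379_010V1.1 and downstream of Bhs1379_011V1.1, which both lay below the hydrated leaf.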

How the data were processed

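Bisulfite libraries of leaf DNA were made with the ZYMO EZ DNA Methylation-Gold kit, per the labels' protocols, 1 library for each of 3 conditions. The deposited tables list differentially methylated regions of each dry stage against the hydrated leaf, with scaffold, boundaries, region length in bp, genes, gene part, KEGG description and Gene Ontology terms. Per the file headers, a level is the authors' mean methylation of a region, a fraction from 0 to 1. Of the aligner, region caller, sequence context, conversion rate and build, none is stated in the labels or file headers. Coverage is not in the tables, so depth and its precision are unknown.

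Rows were reduced to distinct regions, and each 70% RWC region was paired with the 10% RWC region it overlapped most, if by at least 50% of both lengths. The pairing was tested on simulated overlaps. Differences of levels, medians, counts past 0.1 and exact (Clopper-Pearson) 95% intervals were computed in Python 3.11.15 with pandas 2.3.3, numpy 2.4.6, scipy 1.17.1 and matplotlib 3.10.9. With 1 library per condition there was no test. Alternatives were stricter overlap, identical boundaries, close hydrated levels, change from each table's own hydrated level, other thresholds, and same-direction regions.

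The members, gene lists and rules were chosen with earlier results of these data known, and list keywords were amended after their matches were read. Named regions were the 8 largest differences each way with hydrated levels within 0.05, the 5 largest each way with identical boundaries or opposite directions, up to 3 per gene list, and the 5 strongest with equal dry levels. Others named, such as list members of smaller difference, were chosen after their values were seen. Gene names are those of the KEGG descriptions in the deposited tables, and roles given are background.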

Additional observations from a re-analysis of the deposited data

Results flagged for a closer look

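In 13 regions the dry stages lay on opposite sides of the hydrated leaf, each taken against the hydrated level of its own table. With 1 library per condition none of these differences was tested. The differences, 10% minus 70% RWC level, were -0.51 at Bhs10789_002V1.1, -0.43 at Bhs120_050V1.1, -0.39 at Bhs958_006V1.1, -0.37 at Bhs8093_003V1.1 and Bhs8093_004V1.1, and -0.27 at Bhs3997_016V1.1.

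Downstream of Bhs2152_012V1.1 the difference was -0.24. At Bhs878_015V1.1 and Bhs878_016V1.1, where a dimethylaniline monooxygenase is described, it was -0.22, with 0.14 and 0.32 in the 70% RWC table and 0.20 and 0.10 in the 10% RWC table. At Bhs7444_006V1.1 it was -0.21, with 0.11 and 0.28, then 0.18 and 0.07. Upstream of Bhs6326_002V1.1 it was -0.13.

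In the body of Bhs15615_001V1.1, the U4/U6 splicing factor PRP3, it was also -0.13, with 0.10 and 0.22, then 0.20 and 0.09. At Bhs2985_010V1.1 it was -0.06, with 0.03 and 0.12, then 0.15 and 0.06. At Bhs5_108V1.1 and Bhs5_109V1.1 it was 0. The dry levels there were equal, and only the hydrated levels, 0 and 0.27, placed the stages on opposite sides. Downstream of Bhs2152_012V1.1, upstream of Bhs6326_002V1.1 and at Bhs2985_010V1.1 the dry levels differed, but both lay between the hydrated levels of the tables. There too, only the hydrated levels set the opposite sides. Bhs294_025V1.1 was the 1 region with a positive difference, 0.43.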

How the results depend on the processing

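The median difference, 10% minus 70% RWC, and the shares closer to the hydrated level moved little under every alternative tried: the median lay between -0.02 and -0.01, the share closer was 61.0 to 64.0% in regions above the hydrated level and 40 to 48.4% in those below it. Shares past the 0.1 threshold depended on how regions were matched. The share higher at 10% RWC (7.45%) was 3.51% with identical boundaries, 4.87% with an overlap of 80%, 2.80% with hydrated levels within 0.02, 3.29% as change from each table's hydrated level, 19.1% at a threshold of 0.05 and 1.39% at 0.2. The share lower (19.9%) was 7.89%, 14.3%, 8.10%, 11.1%, 35.4% and 5.72% in the same order. In gene bodies (17.4%) it was 8% with identical boundaries, 11.2% with the 80% overlap, 7.86% with close hydrated levels and 9.72% as change. Upstream (19.7%) it was 4%, 6.85% and 10.6% for identical boundaries, close hydrated levels and change. Downstream (22.4%) it was 7.14%, 13.9%, 6.56% and 12.1%. Keeping only same-direction regions, chosen after seeing the data, moved no value past these limits. No paired analysis was possible because each condition was 1 library and the labels carry no replicate numbers, so leaving out a replicate was not possible either. Depth is unknown, and the precision of a single level with it.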
